A study of Mus musculus with 24 samples.

Results

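Lung metastases formed by JygMC(A) mammary carcinoma cells were compared with the carcinoma areas of the primary tumors for their microRNAs (miRNAs). Of the 24 samples of the series, 9 belong to this comparison, 4 labelled as metastasis to lungs and 5 labelled as carcinoma, and they were chosen by these labels alone. The cell line came from a spontaneous mammary carcinoma of a wild mouse and carries GFP and luciferase reporters here. It was injected into the mammary fat pads of female BalbC nude mice, and all 9 samples are untreated tumor tissue isolated by laser capture microdissection. The primary tumors were removed before the lungs were collected, so that the site of growth and the time after injection cannot be told apart in this comparison. Nude mice lack a thymus and therefore most T cells, whereas B cells, NK cells and myeloid cells remain. Normal lung parenchyma (n = 2), EMT-like (spindle cell) areas of the primary tumors (n = 7) and the cell line grown as monolayers (n = 2) and 3D spheres (n = 2) served as reference levels, and normal mammary gland (n = 2) completed the set. Metastasis 1 and carcinoma 1 carry a label that names the same 3 animals and each was counted as 1 sample. Metastasis 2 and carcinoma 5 came from 1 animal. The animals fall into a series with lettered labels (metastasis 1 and carcinoma 1 to 3) and a series with numbered labels (metastasis 2 to 4 and carcinoma 4 and 5).

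A miRNA is a short RNA that lowers the output of messenger RNAs carrying a match to its seed, the bases 2 to 8 at its 5′ end, and miRNAs with the same seed share most of their targets. Many miRNAs are also markers of a cell type. Epithelial cells hold the miR-200 family, endothelium holds miR-126, red cells hold miR-451 and miR-144, lymphocytes hold miR-150, and fibroblasts and other mesenchymal cells hold miR-199a. In breast cancer miR-10b, miR-31, miR-21, miR-126 and miR-335 have been studied for parts in invasion or metastasis, and miR-210 is a well known target of the hypoxia response.

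The mature sequences below belong to miRNAs whose levels differed between lung metastasis and carcinoma, and they are shown because they place these miRNAs into seed groups. They were taken from RefSeq for the mouse build GRCm38.p6, in which 14 of 17 miRNAs looked up were matched, and the seed is in capitals.
miR-451a: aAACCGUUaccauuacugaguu
miR-323-3p: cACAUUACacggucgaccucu
miR-196a-5p: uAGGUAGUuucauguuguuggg
miR-10b-5p: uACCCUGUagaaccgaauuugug
miR-210-3p: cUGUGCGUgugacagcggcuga
miR-31-5p: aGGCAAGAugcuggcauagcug
miR-27a-3p: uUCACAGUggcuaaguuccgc
miR-27b-3p: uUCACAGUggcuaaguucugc
miR-23a-3p: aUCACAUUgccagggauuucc
miR-199a-5p: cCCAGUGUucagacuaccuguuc
miR-199a-3p: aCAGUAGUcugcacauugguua
miR-125b-5p: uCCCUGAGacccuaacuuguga
miR-127-3p: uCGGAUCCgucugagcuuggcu

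Of these 13 sequences only those of miR-27a and miR-27b share a seed. The pair differs at 1 of 21 bases, and how far the probe of one reads the other was not tested. Mature miR-27a lies at chr8:84208727-84208747 (plus strand) and miR-27b at chr13:63300760-63300780 (plus strand). The hairpins of miR-23a, miR-27a and miR-24-2 lie on chromosome 8 with 79 and 56 bases between neighbours, and those of miR-23b, miR-27b and miR-24-1 on chromosome 13 with 154 and 423 bases between neighbours. miR-210 is at chr7:141221407-141221428 (minus strand), miR-31 at chr4:88910614-88910635 (minus strand), miR-10b at chr2:74726074-74726096 (plus strand) and miR-451a at chr11:78073186-78073207 (plus strand). The miR-451a hairpin has the hairpin of miR-144 99 bases away. Both miR-127 and miR-323 lie on chromosome 12, with 119592 bases between their hairpins. The remaining names are those of the probes, which omit some arm labels.

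The nCounter assay counts fluorescent barcodes of probes in 1 lane per sample. In the deposited values, the background given by 6 negative control probes had already been taken off the counts of each lane, and a miRNA was taken as detected when its value exceeded 2 SD of these controls. The sum of the mouse miRNA values, which is the depth of a lane, was 111493, 61497, 98057 and 114004 in metastasis 1 to 4 and 140517, 116584, 162045, 113594 and 131645 in carcinoma 1 to 5. These sums were lower in metastasis (96263 ± 24211, SD, n = 4) than in carcinoma (132877 ± 19672, SD, n = 5; exact two-sided permutation p = 0.0397, with 0.00794 the smallest possible), although metastasis 4 lay above carcinoma 4. The p was 0.0536 to 0.0714 without metastasis 1, 2 or 3 or without carcinoma 1, 2, 3 or 5. The number of miRNAs detected was 237, 135, 166 and 226 in metastasis and 150, 227, 156, 154 and 203 in carcinoma, and the groups overlapped (exact two-sided permutation p = 0.635). Metastasis 2 had both the smallest sum and the fewest miRNAs detected. Normal lung sample 2, with a sum of 2334955, stood apart from all other lanes, and normal lung sample 1 had 589588. Sums were not used to compare conditions further, because the amount of captured tissue also enters them. Values divided by a lane factor from the trimmed mean of M-values (TMM) method are called normalized values hereafter.

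Of 550 mouse miRNAs tested, 15 differed between lung metastasis and carcinoma at an adjusted p under 0.05 (2.73% of those tested, limma with Benjamini-Hochberg adjustment). Higher in metastasis were 4 (0.727%) and lower 11 (2.0%), and 61 had an unadjusted p under 0.05. The higher miRNAs were miR-150 of lymphocytes, miR-451 of red cells, and miR-323-3p and miR-328 near the detection limit. The lower miRNAs were the Hox cluster members miR-10b and miR-196a, miR-210, miR-31, the cluster members miR-23a, miR-27a and miR-27b, the mesenchymal miR-199a-5p, miR-199a-3p and miR-127, and miR-125b-5p. With scaling by the miRNA sum the split was 3 higher and 5 lower. For 10 of the 15, the ranges of the groups did not overlap. Among all miRNAs tested, 1.82% lay higher in metastasis without overlap and 2.0% lower. The median log2 difference over the 550 was 0, and over the 144 detected in every sample of at least 1 group it was -0.13.

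**Figure D1:**
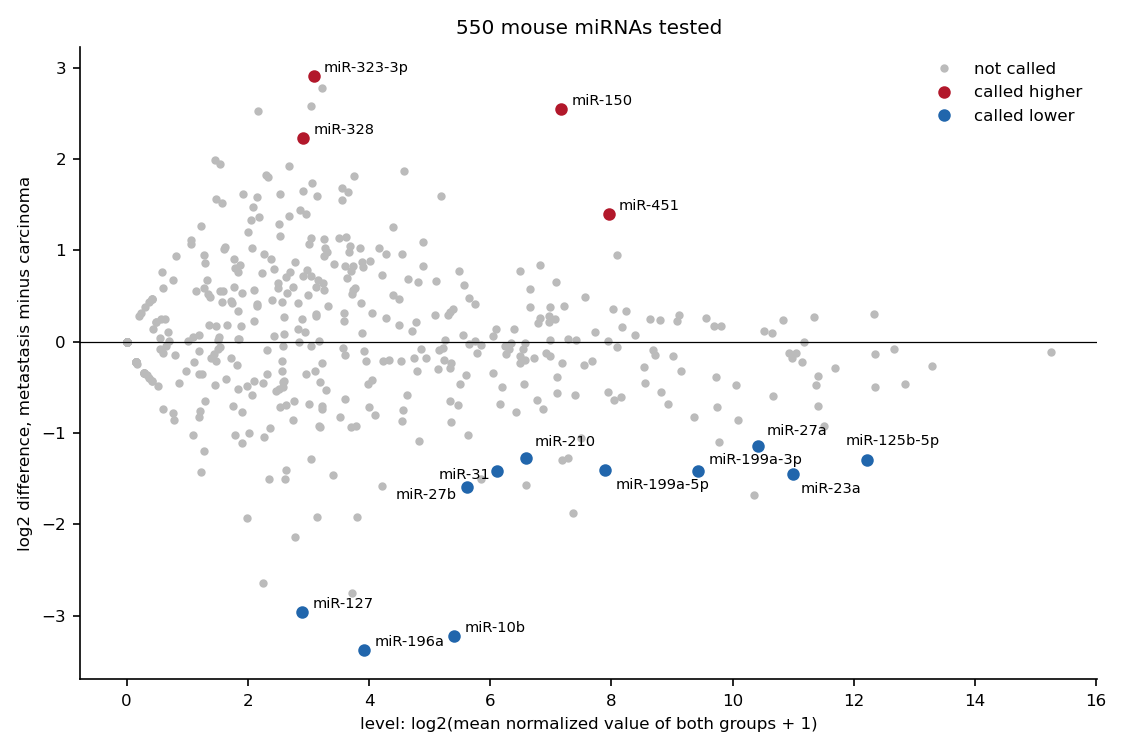
Each point is 1 of 550 mouse miRNAs, with the log2 of its mean normalized value over lung metastasis and carcinoma plus 1 on the horizontal axis and its fitted log2 difference, metastasis minus carcinoma, on the vertical axis. The 4 miRNAs called higher (red) and the 11 called lower (blue) are named, and miR-150 and miR-451 are the red points at higher levels.

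Taking the animal into account removed these calls in one of 2 forms. With the animal as a fixed block, none of the 550 miRNAs passed (56 had an unadjusted p under 0.05), and the adjusted p of the 15 ran from 0.0761 to 0.405 with 15 of 15 in the same direction. With the animal as a random block all 15 were called. The correlation within animals fitted there was -0.0056, so that this fit nearly repeats the main one and adds no support to it. The fixed block compares samples within animals only. The 15 were called from these same samples, so that their direction within parts of them is a description. Within the lettered series (1 against 3) and within the numbered series (3 against 2), 15 of 15 had the direction of the whole comparison, as did 75% and 85.4% of the 144 miRNAs detected in every sample of at least 1 group. In the pool of 3 animals and in the animal with both tissues the direction was again the same for 15 of 15 (79.2% and 90.3% of the 144). In the numbered series the ranges of metastasis and carcinoma were apart for each of the 15 and for 19.8% of all 550. No named miRNA differed in its response between the series by an interaction term (lowest adjusted p = 0.437, limma). P-values of the main fit rest on a spread pooled over all 24 samples in 7 groups and not on the 9 tumor samples alone. The shared animals and pools make these 9 samples fewer independent units than their number.

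**Figure D2:**
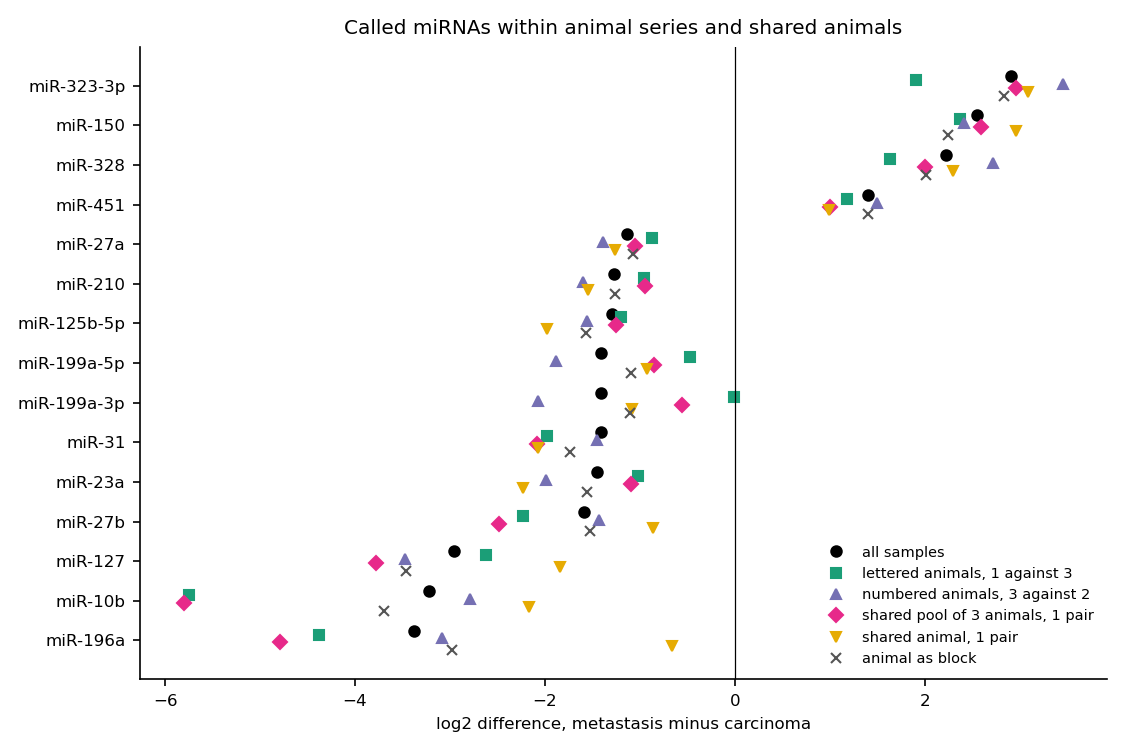
The log2 difference of each called miRNA, metastasis minus carcinoma, is shown for all samples, within each animal series, in the shared pool, in the shared animal and with the animal as a block. All markers of a miRNA lie on the same side of 0, and miR-199a-3p in the lettered series, at -0.01, lies next to it.

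miR-150, which is abundant in mature lymphocytes and restrains the transcription factor Myb, had normalized values of 181.5, 369, 273 and 157 in metastasis 1 to 4 and 29.3, 48.6, 28.5, 46.4 and 46.3 in carcinoma 1 to 5. Every metastasis lay above every carcinoma sample. The log2 difference was 2.55 (standard error 0.38, limma adjusted p = 0.000794), and the call was lost only with the animal as a fixed block (2.24, adjusted p = 0.0761). Normal lung held 862 and 814, so that on the normalized scale the gain of metastasis over carcinoma amounted to 24.5% of the mean level of normal lung. In the EMT-like areas the lowest, median and highest values were 17.2, 49.3 and 68.8, and in the cultures the values ran from 19.3 to 32.3. The detection limits of the culture lanes were 26.7 to 36.2 on this scale.

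miR-451, which accumulates in maturing red cells, had values of 308, 376, 404 and 335 in metastasis and 153, 153, 106, 89.9 and 189 in carcinoma. The groups did not overlap. The log2 difference was 1.40 (standard error 0.29, adjusted p = 0.00814). The call was lost with no scaling between lanes (adjusted p = 0.157), with scaling by the 4 mRNA control probes (0.699), with each miRNA tested alone (0.0942) and with the animal as a fixed block (0.106). In normal lung miR-451 stood at 29255 and 32964, far above both tumor groups, and the gain of metastasis over carcinoma was 0.700% of that level. It was not detected in any culture.

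The other red cell miRNAs did not pass the test. miR-144, made from the same primary transcript as miR-451, had values of 12.2, 12.9, 25.5 and 7.01 in metastasis and 0, 9.04, 0, 0 and 2.57 in carcinoma, and was detected in 2 of 4 and 0 of 5 samples, so that no fold change is given (adjusted p = 0.0831). Without carcinoma 2 its adjusted p was 0.0184. miR-486 was at 37.9, 20.3, 51.0 and 46.3 in metastasis and 12.7, 29.4, 22.4, 7.25 and 20.6 in carcinoma (log2 difference 1.09, adjusted p = 0.309). Of the 3 erythroid miRNAs, 1 was called higher, against 0.727% of all miRNAs tested. The median fitted log2 difference of the 3 was 1.40, or 1.09 with miR-144 set to no difference. Summed over these 3, metastasis held 358 to 481, carcinoma 97.1 to 212 and normal lung 34308 to 39959. The gains of miR-144 and miR-486 were 0.226% and 2.98% of the normal lung level.

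Among 7 leukocyte miRNAs miR-150 alone was called, whereas 0.727% of all miRNAs tested were called higher. The median log2 difference of the 7 was 0.03, which turned to -0.18 with no scaling and to -0.22 with the mRNA controls. miR-142-3p, found in all blood cell lineages, had values of 97.5, 374, 213 and 186 in metastasis and 98.1, 84.7, 98.8, 193 and 318 in carcinoma, with overlapping ranges (log2 difference 0.49, adjusted p = 0.926). Its gain was 2.30% of the normal lung level. miR-223, a myeloid miRNA, was at 85.3, 49.8, 118 and 65.9 in metastasis and 91.7, 75.7, 84.5, 164 and 348 in carcinoma (log2 difference -0.74, adjusted p = 0.539). miR-146a, which dampens signaling by innate immune receptors, was at 269.6, 457, 146 and 603 against 377, 255, 396, 861 and 1151 (log2 difference -0.68, adjusted p = 0.618). Both had the sign opposite to miR-150, and carcinoma 4 and 5 held the highest of the 9 values. miR-155 is not read here, because its probe name states a share of positive control signal that amounts to 54.1% to 78.6% of its value in these 9 lanes. The summed leukocyte values, miR-155 included, were 1181 to 2221 for metastasis, 946 to 2457 for carcinoma and 5139 to 6286 for normal lung.

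Endothelial miR-126-3p, which is among the most abundant miRNAs of normal lung, had values of 2963, 2337, 696 and 2195 in metastasis and 1729, 971, 1863, 1861 and 1444 in carcinoma against 43031 and 44637 in normal lung. Metastasis 3 was the lowest of the 9 tumor samples and metastasis 1 the highest. The log2 difference was 0.24 (adjusted p = 1, 95% interval -0.42 to 0.89), and it turned negative with the mRNA controls and without metastasis 1. The gain over carcinoma was 1.08% of the normal lung level for miR-126-3p and 0.747% for miR-126-5p. Of 8 miRNAs in a neuroendocrine and lung list none was called. Their log2 differences were positive in 3 and negative in 4, with a median of -0.03. miR-30a stood at 6.24% of the normal lung level in metastasis, with a gain of 0.0849%, and miR-375 and miR-218 were detected in none of the 9 tumor samples. miR-338-3p had the largest difference of the list, 0.52, with 1.69 in the lettered series and -0.63 in the numbered series. In bulk samples fewer cells of a type and less RNA per cell cannot be told apart.

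**Figure D3:**
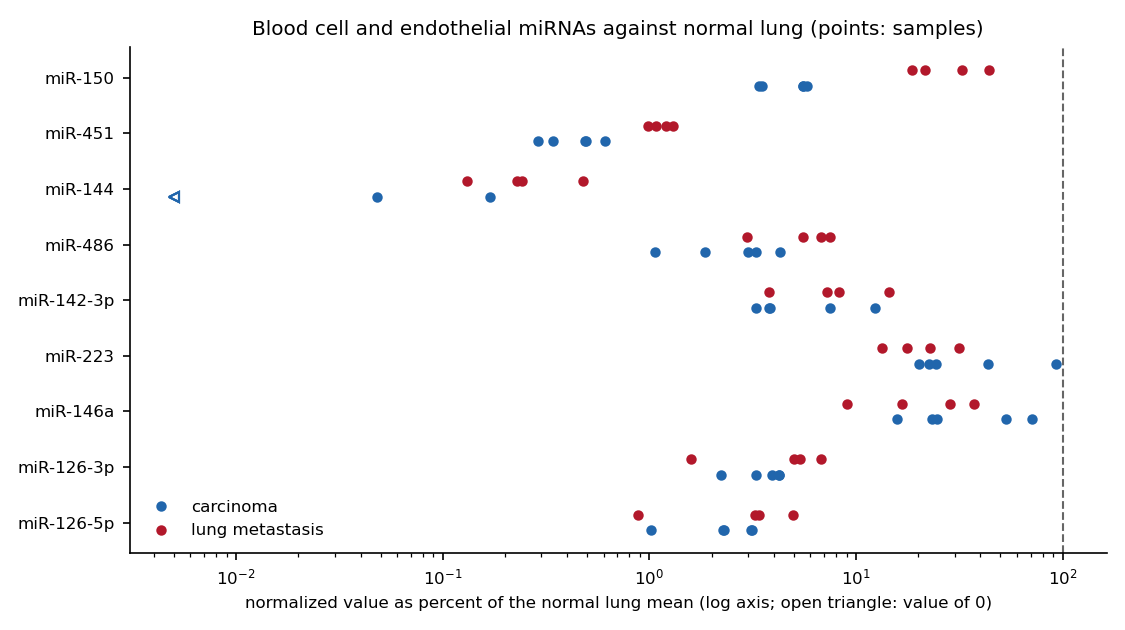
Normalized values of 9 blood cell and endothelial miRNAs in each of the 4 lung metastasis (red) and 5 carcinoma (blue) samples are drawn as percent of the mean of 2 normal lung samples on a log axis, with open triangles for values of 0. miR-150 lies at 18.7% to 44.0% of normal lung in metastasis, whereas miR-451, miR-144, miR-486 and both forms of miR-126 lie below 10% in every tumor sample.

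A list of 115 miRNAs was higher in normal lung than in the cultures by at least 3 on the log2 scale. Of these, 3 were called higher in metastasis and 4 lower, whereas over all 550 it was 4 (0.727%) and 11 (2.0%). The 3 called higher were miR-150, miR-451 and miR-328. Ranges lay apart for 5 of the 115 in the higher direction and 5 in the lower, against 10 and 11 of all 550. The median log2 difference of the 115 was 0, as over all 550. For the 54 of the 115 detected in every sample of a group, the median was -0.10. The 12 miRNAs that were higher in the cultures than in normal lung had a median of 0.16, and none was called. These 12 include miR-155 and miR-543, whose probe names state a share of positive control signal. In the 9 tumor lanes it amounts to 54.1% to 78.6% and 77.2% to 103% of their values. How far this signal placed both probes in the list was not tested. Both lists were drawn from normal lung and culture samples and not from the 9 tumor samples.

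miR-10b and miR-196a, which lie within the Hox gene clusters and target Hox transcripts, were lower in metastasis, where most of their values lay under the detection limit. miR-10b was at 0, 22.1, 4.63 and 21.03 in metastasis and 54.8, 41.8, 64.1, 91.3 and 103 in carcinoma, without overlap, and was detected in 1 of 4 and 5 of 5. Its fitted log2 difference, which rests on values under the limit in 3 of 4 metastases, was -3.22 (standard error 0.70, adjusted p = 0.0112). Without metastasis 1, where its value was 0, the difference was -2.27 and the call held, whereas it was lost without both pooled samples (adjusted p = 0.0596), with both groups alone in the fit (0.195), with each miRNA tested alone (0.264) and with the animal as a fixed block (0.0761). Normal lung stood at 12.5 and 17.9, the EMT-like areas had a lowest, median and highest value of 61.8, 119 and 177, and the cultures ranged from 11.4 to 110.1. The metastases thus lay near normal lung and below both areas of the primary tumor.

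miR-196a was at 0, 3.69, 0 and 2.80 in metastasis and 26.8, 20.3, 14.3, 65.2 and 6.44 in carcinoma, again without overlap. All 4 metastases were under the detection limit and 3 of 5 carcinoma samples above it, so that it was at least 1.45-fold lower against the limits of the metastasis lanes (adjusted p = 0.00148). The call was lost with a higher background (0.820), with both groups alone in the fit (0.169), with each miRNA tested alone (0.233) and with the animal as a fixed block (0.106). Normal lung stood at 50.2 and 66.0, and the 7 EMT-like samples, all above the limit, had a lowest, median and highest value of 19.1, 34.4 and 53.4. Of the 4 Hox cluster miRNAs on the panel 2 were called lower, against 2.0% of all miRNAs tested. The other two, miR-10a and miR-196b, had log2 differences of 0.41 and -0.34.

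miR-210, which is induced by hypoxia-inducible factors, had values of 59.6, 62.7, 46.3 and 50.5 in metastasis and 116, 89.3, 154, 141 and 185 in carcinoma. The groups did not overlap, and the spread within metastasis was small. The log2 difference was -1.27 (standard error 0.22, adjusted p = 0.00168). Its call held without any 1 of the 9 samples, and was lost with the mRNA controls (0.105), with each miRNA tested alone (0.0942) and with the animal as a fixed block (0.106). Normal lung was at 54.5 and 49.6, as in metastasis, and the EMT-like areas were at 135, 175 and 211 (lowest, median and highest).

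miR-31, known as a suppressor of metastasis in breast cancer, was at 20.3, 29.5, 32.4 and 75.7 in metastasis and 89.2, 67.8, 93.7, 106 and 127 in carcinoma. Metastasis 4 lay within the carcinoma range and the other 3 below it. miR-31 was detected in 3 of 4 and 5 of 5 samples, with metastasis 2 under the limit of its lane (33.5 on the normalized scale). The log2 difference was -1.41 (standard error 0.30, adjusted p = 0.00910), and the call was lost in 6 of 31 alternatives, among them both groups alone in the fit (0.195) and the animal as a fixed block (0.106). Cultured cells held between 85.5 and 310.4, and normal lung 40.7 and 37.6. Of 10 miRNAs studied in breast cancer metastasis, 3 were called lower (miR-10b, miR-31 and miR-210) and none higher, against 2.0% and 0.727% of all miRNAs tested. The sign was negative in 8 of the 10 and positive in miR-203 (0.95) and miR-126-3p (0.24). Some of the other members pointed the same way as the 3 called without passing the test. miR-21 was at 2044 ± 884 in metastasis (SD, n = 4) and 3807 ± 1601 in carcinoma (SD, n = 5), a log2 difference of -0.93 (adjusted p = 0.795). For miR-9 the difference was -0.72 (adjusted p = 0.651).

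**Figure D4:**
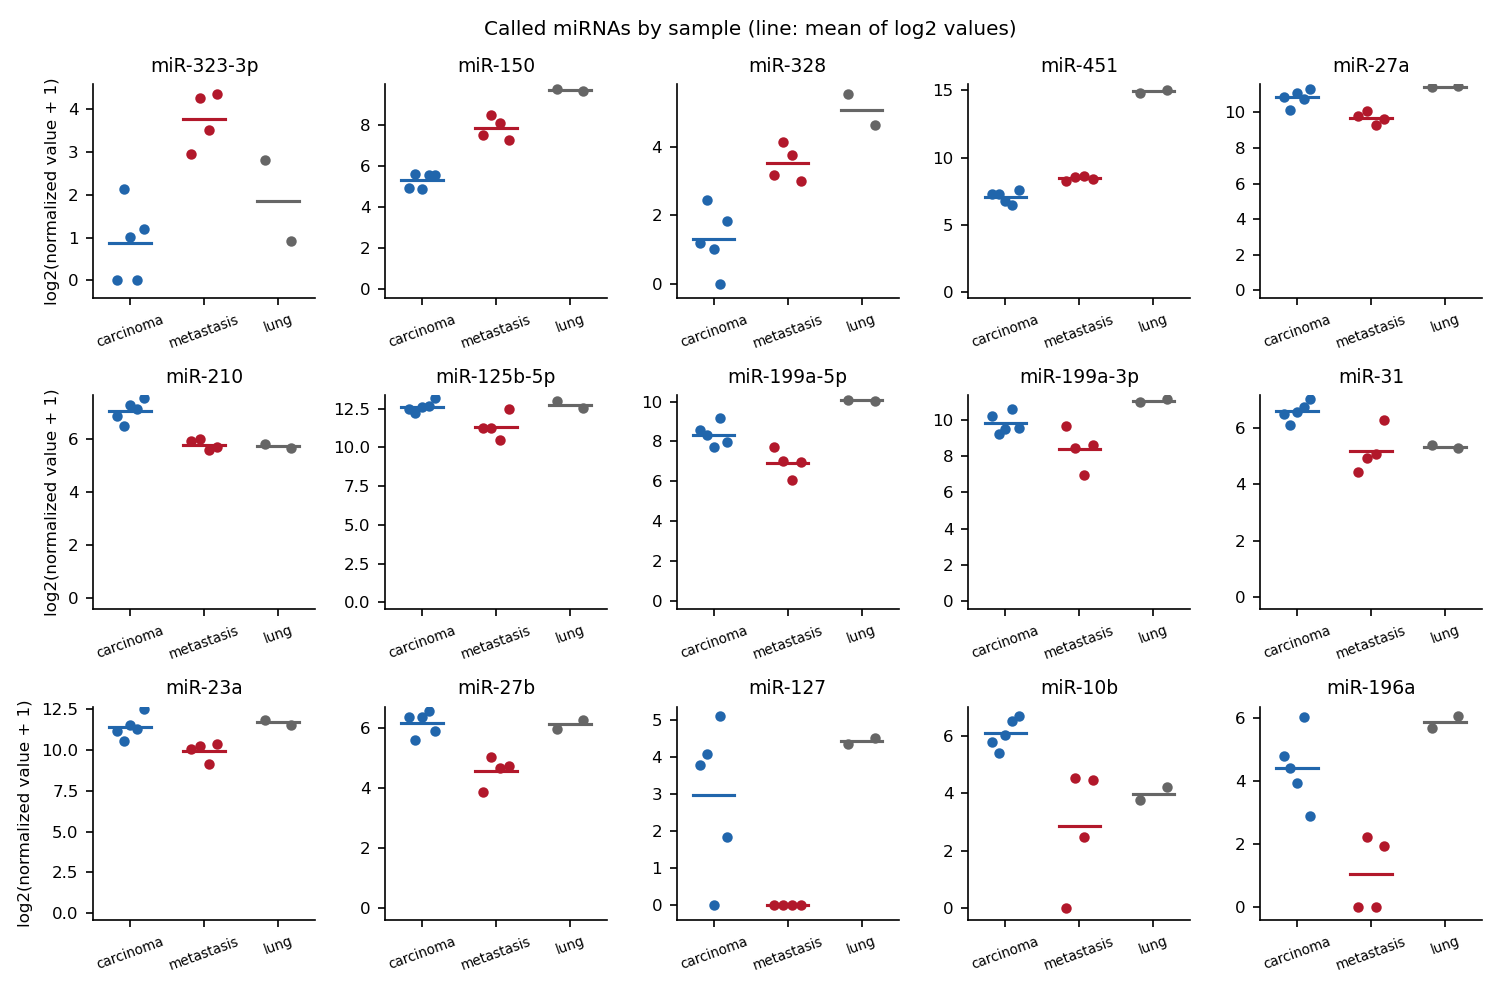
For each of the 15 called miRNAs, log2 of the normalized value plus 1 is plotted for 5 carcinoma (blue), 4 lung metastasis (red) and 2 normal lung (gray) samples, with a line at the mean of the log2 values. The metastasis line of miR-150 lies between those of carcinoma and normal lung, whereas for miR-23a, miR-27a, miR-199a-5p and miR-199a-3p it lies below both. For both miR-199a arms the point of metastasis 1 lies within the carcinoma range.

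The miRNAs of the miR-23a and miR-23b clusters, which include regulators of lipid metabolism, angiogenesis and the cell cycle, were all lower in the fit. Of the 5, 3 were called, against 2.0% of all miRNAs tested that were called lower. miR-27b was at 13.5, 31.3, 24.3 and 25.2 in metastasis and 80.3, 47.5, 80.4, 94.2 and 57.9 in carcinoma (log2 difference -1.59, standard error 0.29, adjusted p = 0.00310). It was detected in 3 of 4 and 5 of 5 samples, with metastasis 2 under the limit of its lane (33.5 on the normalized scale). miR-27a, with the same seed and a much higher level, was at 904, 1073, 619 and 785 against 1876, 1117, 2172, 1739.5 and 2565 (-1.14, adjusted p = 0.0420). miR-23a was at 1065, 1240.3, 570.1 and 1309 against 2268, 1502, 2940.3, 2551 and 5846 (-1.45, adjusted p = 0.0459). None of these 3 had overlapping groups. With the animal as a fixed block their adjusted p was 0.106, 0.251 and 0.204. The call of miR-27b held without any 1 of the 9 samples. That of miR-27a held only without metastasis 2 or carcinoma 2 and that of miR-23a only without metastasis 4 or carcinoma 2, and both were lost without any other single sample (adjusted p 0.0717 to 0.145 and 0.0669 to 0.198).

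miR-23b was at 669, 538, 407 and 582 in metastasis and 1235, 663, 1355, 1106 and 1668 in carcinoma, with metastasis 1 within the carcinoma range (-1.09, adjusted p = 0.0666, with a call in 6 of 31 alternatives, among them 0.00725 without the cultures in the fit). miR-24, the last of the clusters, was at 209, 173, 173 and 265 against 278, 287, 293, 294 and 443. Its ranges did not overlap, yet its log2 difference of -0.64 did not pass the test (standard error 0.37, adjusted p = 0.651). Normal lung held more of each of these miRNAs than metastasis, with 3629 and 3047 for miR-23a and 2788 and 2809 for miR-27a. Of the 11 miRNAs called lower, 9 had a mean in normal lung above that in metastasis, and 7 had a mean above that in carcinoma too. In 10 of the 11 the lowest EMT-like sample lay above the highest metastasis. The 11 were selected for low values in metastasis, and the same shares over all miRNAs tested were not computed. These counts therefore describe the 11 and do not set them apart from other miRNAs.

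Both arms of the miR-199a hairpin, an abundant miRNA of fibroblasts, were called lower. miR-199a-5p was at 210.0, 129, 64.9 and 122 in metastasis and 379.7, 315, 209, 568 and 246 in carcinoma (-1.41, standard error 0.34, adjusted p = 0.0261). miR-199a-3p was at 797, 348, 124 and 384 against 1173, 606, 729, 1566 and 741 (-1.41, standard error 0.37, adjusted p = 0.0461). For both arms metastasis 1 alone reached the carcinoma range, and in the lettered series the differences were -0.48 and -0.01 against -1.88 and -2.07 in the numbered series. Neither arm was detected in any culture, and normal lung held 1095 and 1038 and 2004 and 2248. The call of the 5p arm was lost without metastasis 2 or 3 or carcinoma 1 or 4 (adjusted p 0.0588 to 0.127), and that of the 3p arm held only without metastasis 1 or carcinoma 2 (0.0612 to 0.200 without any other). With the animal as a fixed block the adjusted p was 0.347 and 0.405.

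Of 7 fibroblast and mesenchymal miRNAs, 3 were called lower, 2 of them the arms of the miR-199a hairpin, against 2.0% of all miRNAs tested. The median log2 difference was -1.29, or -1.14 with miR-127 set to no difference (-0.13 over the 144 detected miRNAs). The sign was negative in 6 and positive in miR-214, which was not detected in every sample of either group. Its difference was 0.27, with 1.30 in the lettered series and -1.01 in the numbered series. The third called miRNA was miR-127, an imprinted miRNA of the Dlk1-Dio3 region, with 0 in all 4 metastases and 12.7, 15.8, 0, 33.3 and 2.57 in carcinoma. It was detected in 2 of 5 carcinoma samples, so that no fold change is given (adjusted p = 0.0461), and its call held only without carcinoma 3 or 5 (0.0800 to 0.141 without any other, 0.106 with the animal as a fixed block). miR-152, which targets DNA methyltransferase transcripts, was at 97.5, 86.6, 41.7 and 111 in metastasis and 159, 128, 172, 278 and 293 in carcinoma, without overlap, but was not called (-1.29, adjusted p = 0.222, 0.00872 without the cultures in the fit and 0.0453 with the series of animals as a term). For miR-22 the difference was -1.14 (adjusted p = 0.222). The summed values of the list were 619.9 to 2138 for metastasis, 2027 to 5052 for carcinoma, 3239 to 5268 for EMT-like areas and 10699 to 11453 for normal lung. For 2 smooth muscle miRNAs the summed values were 621 to 1118 in metastasis and 789.8 to 1595 in carcinoma, and none was called. Their median log2 difference was -0.18 and turned to 0.04 with the 100 most abundant miRNAs and to 0.09 with the miRNA sum. In the lettered series the 2 differences were 0.69 and 0.35, and in the numbered series -0.68 and -0.95 (interaction adjusted p = 0.735 and 0.434, limma).

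miR-125b-5p, a relative of the founding lin-4 miRNA, was the most abundant of the called miRNAs, at 2409, 2407, 1409 and 5598 in metastasis and 5751, 4709, 6212, 6515 and 9496 in carcinoma. Metastasis 4 lay within the carcinoma range. The log2 difference was -1.29 (standard error 0.34, adjusted p = 0.0459), and the call held only without metastasis 4 or carcinoma 2 (0.0806 to 0.200 without any other sample, 0.251 with the animal as a fixed block). All 5 miRNAs of the group of miR-99, miR-100 and miR-125 had a negative sign, although 1 of 5 turned positive with scaling by the miRNA sum. Of the 5, 1 was called, against 2.0% of all miRNAs tested that were called lower. miR-100 was at 66.4, 27.6, 29.0 and 77.1 against 155, 97.2, 189, 123 and 133, without overlap (-1.57, adjusted p = 0.402, 0.00872 without the cultures in the fit). For the let-7 family none was called, and the sign was negative in 9 of 9 with a median of -0.26, whereas with the miRNA sum it was negative in 4 of 9 with a median of 0.014 and with the 100 most abundant in 5 of 9 with a median of -0.042.

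miR-140 and miR-1196 also separated the groups without being called. miR-140, a miRNA of cartilage that is higher in these tumors than in normal lung, was at 723, 593, 465 and 505 in metastasis and 1524, 954, 1888, 1658 and 4163 in carcinoma (-1.68, adjusted p = 0.405, 0.00411 without the cultures in the fit and 0.0199 with the series of animals as a term). miR-1196 was at 168, 112, 101 and 79.9 against 368, 195, 181, 177 and 293 (-1.06, adjusted p = 0.309).

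The epithelial miR-200 family, which represses Zeb1 and Zeb2, was detected in all 4 metastases, and no member was called. miR-200c was at 1356, 643, 534 and 737 in metastasis and 1687, 675, 1215, 323 and 318 in carcinoma, and miR-200b at 1256, 728, 612 and 713 against 1892, 756, 1589, 286 and 270.3. Metastasis 1 was the highest of its group for all 5 members, and carcinoma 4 and 5 were the lowest of theirs. The log2 differences of the family ran from 0.17 to 0.58 with an adjusted p of 1 for each, and the sign of each of the 5 turned under some alternative. The interval for miR-200c, -1.82 to 2.17, leaves differences of several fold in either direction. With the animal as a fixed block the 5 differences were 1.71 to 3.35, with an unadjusted p of 0.0244 to 0.0906 and an adjusted p of 0.400 to 0.593. In the numbered series the metastases lay above carcinoma for all 5, by 0.98 to 1.92, whereas the lettered differences ran from -0.07 to 0.65. Summed over the family, metastasis held 2022 to 4425, carcinoma 855 to 5783, the EMT-like areas 39.8 to 1516 and the cultures 21.7 to 46.7. miR-203, which marks differentiated epithelium, was at 356, 229, 568 and 216 in metastasis and 371, 205, 283, 75.4 and 72.1 in carcinoma (0.95, adjusted p = 0.880).

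**Figure D5:**
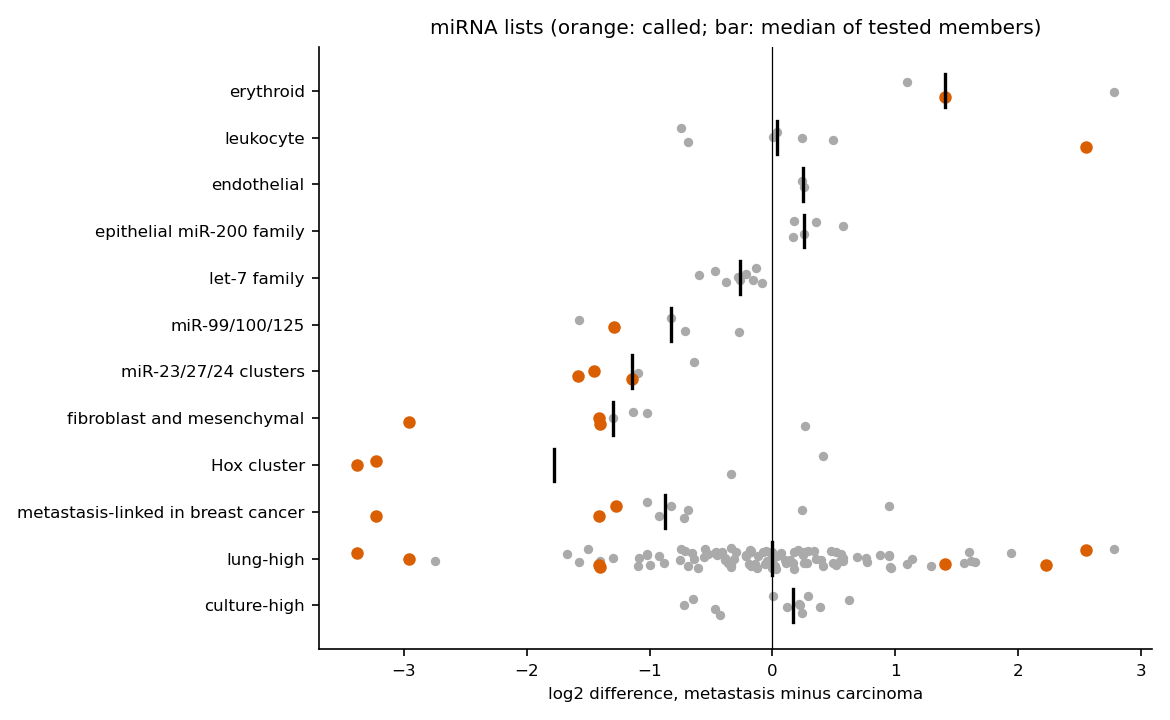
Each point is a miRNA of a list, placed by its log2 difference, metastasis minus carcinoma. Called members are orange, miR-144 and other miRNAs undetected in a group are placed by their fitted value, and bars mark the median of the tested members, which is -1.29 for the 7 fibroblast and mesenchymal miRNAs and 0 for the 115 lung-high miRNAs.

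The remaining miRNAs called higher rested on values near the detection limit. miR-323-3p, of the Dlk1-Dio3 region, was at 6.77, 18.4, 10.4 and 19.6 in metastasis and 0, 3.39, 1.02, 0 and 1.29 in carcinoma, detected in 2 of 4 and 0 of 5 (adjusted p = 0.00310, 0.168 with the animal as a fixed block). With a higher background its adjusted p was 0.958. miR-328 was at 8.13, 16.6, 12.7 and 7.01 against 1.27, 4.52, 1.02, 0 and 2.57, detected in 1 of 4 and 0 of 5 (adjusted p = 0.0487), and its call held only without carcinoma 2 (0.0612 to 0.158 without any other sample, 0.400 with the animal as a fixed block). No fold change is given for either. In normal lung miR-328 stood at 45.9 and 23.8, and its gain over carcinoma was 26.5% of that level, whereas miR-323-3p was at 6.06 and 0.887 and under the limit in both samples. Of 49 miRNAs of the Dlk1-Dio3 region tested, 1 was called higher and 1 lower, against 0.727% and 2.0% of all miRNAs tested. In every sample of a group 3 were detected, among them miR-543. Its detection is not read here, because the stated positive control signal amounts to 77.2% to 103% of its value in these 9 lanes.

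Below these came miRNAs with a positive sign that did not pass. miR-297c was at 20.3, 49.8, 27.8 and 46.3 in metastasis and 2.55, 11.3, 16.3, 13.0 and 6.44 in carcinoma, without overlap (1.87, adjusted p = 0.222, 0.0206 with a higher background). miR-484 was at 104, 77.4, 125.1 and 139 against 67.5, 81.4, 84.5, 44.9 and 48.9 (0.77, adjusted p = 0.365). The differences were 0.84 for miR-376a, 1.59 for miR-2183, 0.62 for miR-883b-3p, 0.66 for miR-421 and 0.38 for miR-423-5p, with an adjusted p of 0.434 to 0.776. Their highest values in the cultures were 199, 32.2, 61.0, 28.9 and 166. The culture lanes had sums of 24418 to 44953 and detection limits of 26.7 to 36.2 on the normalized scale. The values of miR-2183 and miR-421 lay within the span of these limits. The lower sums of the metastasis lanes move with the metastasis group, and their part in the differences above was not tested.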

How the data were processed

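Mouse miRNAs were measured with the nCounter assay in 24 samples. The authors deposited values that are barcode counts after subtraction of a lane's own background, the mean over 6 negative controls (listed as another unit than counts, since 34.8% of the mouse values lie below 0), with no scaling between lanes and all replicates apart. The submitters' processing notes name Partek, and the software that subtracted the background is not given in the sources used here. Groups follow the sample labels. Of 566 mouse probes, 550 with a value above 0 in any sample were tested, and 16 were left out. Values were floored at 0, scaled by trimmed mean of M-values factors (30% of the log ratios and 5% of the levels trimmed, EMT-like replicate 2 as the reference lane), transformed as log2(value + 1) and fitted with limma 3.58.1 (R 4.3.3) with trend, in 1 fit of 24 samples and 7 groups, with Benjamini-Hochberg adjustment at 0.05. For low miRNAs the log2 difference on this scale can be understated by the added 1 or enlarged by a value of 0. That of miR-10b was -3.22, and -2.27 without metastasis 1, where its value was 0. The samples, miRNA lists and tests were chosen with earlier results of these data known. Named are all called miRNAs, the 10 with the lowest unadjusted p in each direction among those detected in every sample of a group, and members of the lists. A bound on a fold was taken against the detection limit per lane. Single values were compared with exact permutation tests over 126 splits in Python 3.11.15. The number of lanes and the captured amount limit precision. Probe names state a share of positive control signal for let-7a, miR-155, miR-34c and miR-543, which was not subtracted. In data simulated for this comparison with 200 of 550 miRNAs changed 4-fold, 44.5% were recovered, and 100% of the 64 with a mean of at least 20, with 4.30% of the calls among unchanged miRNAs. The simulated lanes were independent, with the same dispersion of 0.0446 for every miRNA and no animal effect. These shares therefore do not hold for miRNAs with a wider spread or for samples that share animals. Deviations from the group means, over 193 miRNAs, correlated with a median of 0.0916 (range -0.292 to 0.314, 10 pairs) between samples of 1 animal, with 0.161 and 0.314 for the metastasis and carcinoma pairs. Between other animals of the same series the median was 0.0704 (range -0.249 to 0.368, 32 pairs). The correlations thus do not set samples of 1 animal apart within a series. Animal labels and not replicate numbers were used to pair samples. Viral probes and the remaining comparisons were left out.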

Additional observations from a re-analysis of the deposited data

Results flagged for a closer look

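By Dixon's criterion, 5 of 91 sets of values within a group held a sample far from the others, and chance flags about 1 in 20. miR-24 in carcinoma was highest in replicate 5, at a normalized value of 443. miR-144 in carcinoma was highest in replicate 2, at 9.04, under the detection limit of that lane. In lung metastasis miR-883b-3p was highest in replicate 2, at 101, and miR-141 was highest in replicate 1, at 213. miR-22 in lung metastasis was lowest in replicate 3, at 356. No cause was tested for these values.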

How the results depend on the processing

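The count of 15 called miRNAs was 8 with scaling by the miRNA sum, 3 with the 4 mRNA controls, 9 with lung metastasis replicate 3 as the TMM reference, 4 with both groups alone in the fit, 24 without the cultures, 0 with the animal as a replicate block, 1 with each miRNA tested alone and 8 without the pooled samples. Chosen after seeing the data, carcinoma replicate 2 as the reference gave 9, leaving out normal lung sample 2 or both normal lung samples gave 9 each, and the 24 lanes in turn as reference gave 6 to 15. Leaving out 1 sample gave 8 to 17, with 8 without carcinoma replicate 1 or 4 and 9 without lung metastasis replicate 2. Shared with the 15 were 10 of 10 with no scaling, 10 of 11 with the 100 most abundant miRNAs and 15 of 21 with a filter on at least 20. The median difference of the 144 detected miRNAs was -0.13 with TMM, -0.34 with no scaling, 0.09 with the 100 most abundant, 0.15 with the sum and -0.38 with the mRNA controls. Over the alternatives, the 15 kept their direction in 461 of 461 values and lost the call in 167. The replicate block with the animal changed no call among the other 29 named miRNAs. The difference in the miRNA sum, -36614, ran from -42528 to -25026 without 1 sample. That in miRNAs detected, 13, turned to -7.85 with a fixed limit of 20 and ran from -2.33 (without lung metastasis replicate 1) to 31.7 without 1 sample.

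Signs turned for miRNAs that were not called. With no scaling miR-200b was at -0.045 and miR-200c at -0.037. With the mRNA controls miR-200b was at -0.089, miR-200c at -0.082, miR-429 at -0.0019 and miR-126-3p at -0.022, and without the pooled samples miR-126-5p was at -0.033. Without 1 sample the differences ran from -0.0018 to 0.69 for miR-126-3p, from -0.048 to 0.77 for miR-126-5p, from -0.12 to 0.76 for miR-200a, from -0.18 to 0.52 for miR-200b, from -0.098 to 0.51 for miR-200c, from -0.30 to 0.97 for miR-141 and from -0.13 to 0.60 for miR-429, with the negative values of the miR-200 family without carcinoma replicate 4 or 5 or lung metastasis replicate 1 and those of miR-126 without lung metastasis replicate 1 or carcinoma replicate 2. The cause of these changes was not tested. A count model was not used because the values are not counts, and values near the detection limit of 4 to 21.4 carry little precision.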
